A study of Sus scrofa with 3 samples.

Results

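The miR-532, miR-188, miR-362, miR-500 and miR-660 cluster is a group of miRNA hairpins that lie close together on 1 strand of the X chromosome. Its members were taken by name from the deposited tables, as every known miRNA row named miR-188, miR-362, miR-500, miR-500a, miR-501, miR-502, miR-532 or miR-660. The cluster was selected on measured values, since miR-532-5p and miR-500-5p had been among the larger decreases from E90 to P30d in earlier results of these tables. The E90 to P30d ratios of its members are therefore given as a description. The pairs with P7y share the E90 or the P30d library, so the selection bears on them too. It also bears on the shares within the cluster and on the arm balance of miR-532 and miR-500. Of the 8 names, 6 had a read, and no row bore the names miR-500a or miR-502. The members comprised 61 deposited rows and 11 arms of 1007 miRNA arms in all, and 8 of the 11 arms passed the filter of a mean of 10 CPM over the 3 libraries, as did 333 of all arms. CPM are the reads of an arm per 1000000 reads of named miRNAs. The miR-188-5p and miR-362-3p arms passed that filter through their E90 level.

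Livers came from male pigs of the Jinhua breed at 3 ages, which were embryonic day 90 (E90, a late fetal stage), day 30 after birth (P30d) and year 7 after birth (P7y, adult). The labels name 3 pigs per stage but give 1 small RNA library per stage, and whether RNA was pooled is not stated. No treatment or genetic change is labelled. The reads of named miRNAs numbered 9243601 in the E90 library, 3622993 in the P30d library and 9920207 in the P7y library, so the P30d values are the least precise. With 1 library per stage no difference has a replicate check. All intervals are 95%, exact, and cover counting error only, and PCR copies of a molecule are counted as separate reads. Markers of hepatocytes made up 31.4%, 36.8% and 28.9% of miRNA reads at E90, P30d and P7y. Their leading arms differed: miR-122-5p was at 128017, 213802 and 37870 CPM, miR-192-5p at 109467, 109310 and 154836, and miR-148a-3p at 75920, 41822 and 95666.

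A miRNA is cut from a hairpin precursor, and either arm of the hairpin (5p or 3p) may be loaded into an Argonaute protein. Bases 2 to 8 of the loaded strand, the seed, pair with target mRNAs and largely set which messages are repressed. Hairpins that lie together are often transcribed as 1 precursor, yet the mature miRNAs can differ in level because processing and stability differ. In mammals this cluster lies at the CLCN5 gene, which encodes a chloride and proton exchanger of endosomes. Several of its members have been studied in cancer and in cell growth.

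The main reads of the more abundant arms are shown because their seeds tell the members apart. Each is the representative read with the most reads over the libraries, among those found whole in a hairpin of the cluster, written as DNA, 5′ to 3′, with bases 2 to 8 in capitals.
miR-532-5p: cATGCCTTgagtgtaggaccgt
miR-188-5p: cATCCCTTgcatggtggagggt
miR-362-5p: aATCCTTGgaacctaggtgtgagt
miR-500-5p: tAATCCTTgctacctgggtgaga
miR-660-5p: tACCCATTgcatatcggagttg
miR-500-3p: aTGCACCTgggcaaggattct
miR-362-3p: aACACACCtattcaaggattca
miR-532-3p: cCTCCCACacccaaggcttgca

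No 2 of these 8 arms shared a seed. Across the full length, miR-362-5p and miR-500-5p were 76.0% identical in a global alignment, and miR-188-5p and miR-532-5p were 68.2% identical. The 3p arms of miR-362 and miR-500 were also 68.2% identical. Outside the cluster, miR-329b-3p bore the seed of miR-362-3p, with 273, 17 and 12 reads in the E90, P30d and P7y libraries. The seed of miR-500-3p was also that of miR-502b-3p, with 46, 2 and 13 reads.

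The deposited tables placed the cluster at 6 hairpin positions over 8880 bases of the plus strand (Sscrofa10.2, chrX:48632024-48640903). The order was miR-532, miR-188, miR-500, miR-362, a further copy of miR-500, and miR-660. In the RefSeq gene table of the later assembly Sscrofa11.1, 3 of the 8 names were matched, as MIR532, MIR500 and MIR362. They stood next to each other between USP27X and CLCN5, and all 3 lay outside the CLCN5 gene model of that table. Whether the hairpins lie in an intron of a longer CLCN5 transcript was not analysed here, since no annotation of the files' build was used.

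The hairpins of miR-532 and of both miR-500 copies are shown as deposited, the first because it held the most reads and the others because they are near copies of each other. Capitals mark the arms as the tables mark them.
miR-532, chrX:48632024-48632114: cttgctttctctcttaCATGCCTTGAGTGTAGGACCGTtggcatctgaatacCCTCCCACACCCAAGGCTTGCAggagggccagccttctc
miR-500, chrX:48637984-48638080: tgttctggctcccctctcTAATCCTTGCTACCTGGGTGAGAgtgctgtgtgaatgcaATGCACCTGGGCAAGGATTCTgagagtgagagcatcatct
miR-500 further copy, chrX:48639758-48639841: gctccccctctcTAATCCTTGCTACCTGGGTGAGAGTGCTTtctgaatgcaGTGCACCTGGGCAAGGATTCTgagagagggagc

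The 2 miR-500 hairpins were 81.4% identical. Their 5p arms held the same main read, so that read could not be assigned to 1 of the 2 hairpins. A longer E90 form, taatccttgctacctgggtgagagtgctt, with 1 read, was found whole in the further copy. Over the main miR-500-3p read, the 3p arms differed by 1 substitution, A1G, counted from 1 at the 5′ end of the read, with the base of the first copy written first. The substitution lies before the seed. The miR-188 hairpin, at chrX:48632378-48632485, was 64.8% identical to that of miR-532. The miR-362 hairpin, at chrX:48638449-48638551, was 67.6% identical to the first miR-500 hairpin. The miR-660 hairpin, at chrX:48640809-48640903, was closest to miR-188, with 63.3% identity.

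**Figure D1:**
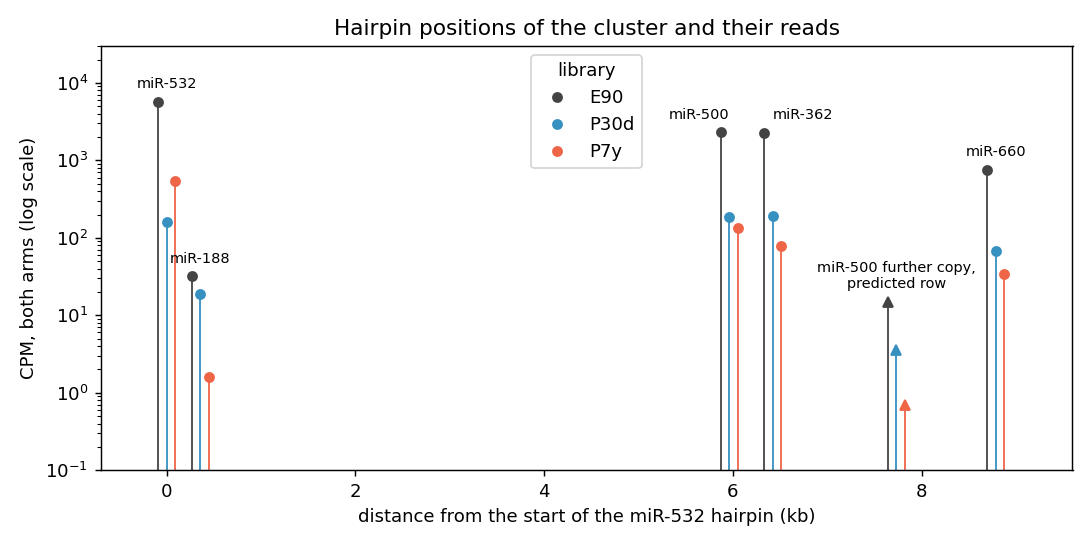
Level of each member, both arms summed (CPM, log scale), in the E90, P30d and P7y libraries. The horizontal axis is the distance of its hairpin from the start of the miR-532 hairpin in kb, with points shifted sideways for legibility. All reads named miR-500 are drawn at the first copy, although the main read of the lesser arm is shared by both copies. Triangles hold only the reads of the predicted hairpin over the further miR-500 copy. The levels of the 2 miR-500 copies were therefore not measured apart. At every position the E90 level is above the other 2, and only miR-532 is higher at P7y than at P30d.

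The cluster was an abundant group in the fetal library and a minor one afterwards. At E90 its arms held 101618 reads, 10993 CPM or 1.10% of miRNA reads (1.09 to 1.11). At P30d they held 2265 reads, 625 CPM or 0.0625% (0.0600 to 0.0651). At P7y they held 7796 reads, 786 CPM or 0.0786% (0.0769 to 0.0804). The E90 value stood far above the postnatal ones. The sum was 17.6-fold lower at P30d than at E90, a log2 ratio of -4.14 (-4.20 to -4.08), and 14.0-fold lower at P7y than at E90, -3.81 (-3.84 to -3.77). The P7y against E90 ratio was smaller with other scalings, -2.60 with TMM factors and -2.71 with median-of-ratios size factors, which are 6.08-fold and 6.53-fold lower. From P30d to P7y it was 1.26-fold higher, 0.33 (0.26 to 0.40), less than the 2-fold difference required for a call here. With TMM factors that ratio was 1.36 (1.29 to 1.42) and with size factors 1.44 (1.37 to 1.51), both past the rule, and on the CPM scale without miR-532 it was -0.91.

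A call required a difference of 2-fold or more with an interval off 0. From E90 to P30d, 7 of the 8 member arms that passed the filter were lower, none was higher, and miR-188-5p was not called. Of the 333 arms, 35.7% were lower and 33.0% higher in the same pair. From E90 to P7y all 8 were lower and none higher, against 50.8% lower and 12.3% higher among the 333. From P30d to P7y, 3 were lower, 1 was higher and 4 were not called, against 55.3% lower and 13.8% higher. With TMM or size factors, 1 of the 3 was still called lower. The median log2 ratio of the 8 arms was -3.52, -4.43 and -0.97 in these 3 pairs, beside -0.14, -1.06 and -1.32 for all 333. The pairs share libraries, so their counts do not stand independently. The filter also favours arms that are high in 1 library. The selection favoured a high E90 and a low P30d level, which bears on all 3 pairs.

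The median of all arms shifted, so scaling matters for the pairs that include P7y. With TMM factors, called arms among the 333 split into 93 higher and 112 lower from P30d to P7y, instead of 46 and 184. With median-of-ratios size factors the split was 94 and 107. From E90 to P7y it was 100 and 104 with TMM and 96 and 109 with size factors, instead of 41 and 169. All 8 member arms remained lower from E90 to P7y under both, but every log2 ratio of this pair moved up by 1.20 with TMM and 1.10 with size factors. For P30d to P7y the shifts were 1.03 and 1.11, and for E90 to P30d they were 0.175 and -0.007. Between P30d and P7y, miR-500-3p, miR-500-5p, miR-532-3p and miR-660-5p were below 0 on the CPM scale and above 0 under both, without a call in any case.

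**Figure D2:**
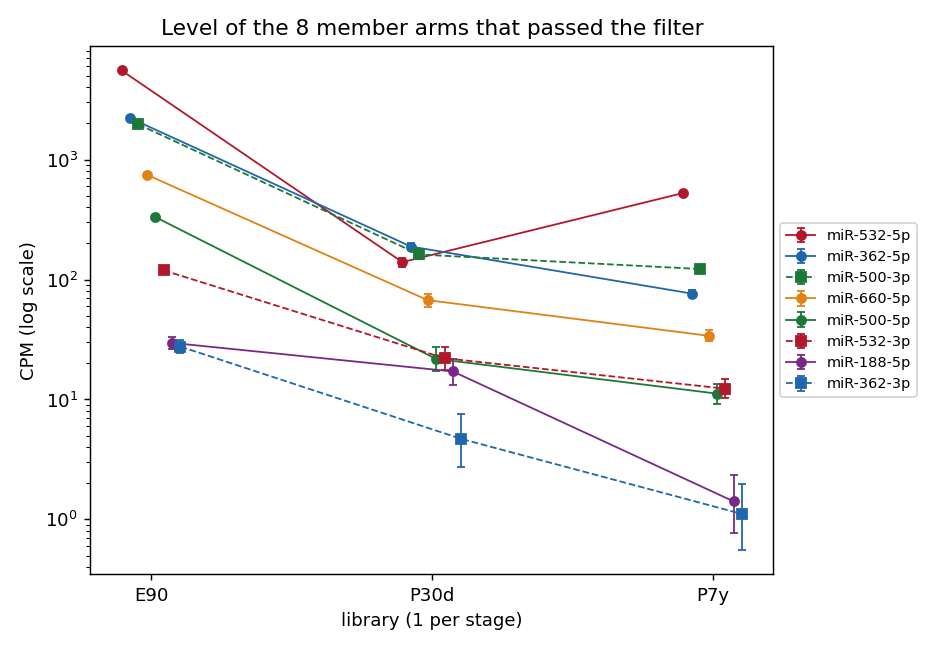
CPM (log scale) of the 8 member arms that passed the filter in the E90, P30d and P7y libraries; circles with solid lines are 5p arms, squares with dashed lines 3p arms, and bars are 95% counting intervals. All arms are highest at E90, and only miR-532-5p is higher at P7y than at P30d.

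The most abundant member, miR-532-5p, was read 51230 times in the E90 library, 506 in P30d and 5225 in P7y. These are 5542 CPM (5494 to 5590), 140 CPM (128 to 152) and 527 CPM (513 to 541). It was the 27th most abundant arm of the E90 library, the 158th at P30d and the 69th at P7y. The arm was thus lowest at P30d and intermediate at P7y, and no 2 of the 3 counting intervals overlapped. It was 39.7-fold lower at P30d than at E90, a log2 ratio of -5.31 (-5.44 to -5.18), the 5th lowest of 333. From P30d to P7y it was 3.77-fold higher, 1.92 (1.78 to 2.05), and 3.24 above the median of all arms on the log2 scale, the 25th highest ratio of 333. At P7y it was still 10.5-fold below E90, -3.40 (-3.44 to -3.35). It was the 1 member arm higher from P30d to P7y. It kept that call under every scaling tried, with log2 ratios of 2.94 with TMM and 3.02 with size factors. Under these, its E90 to P7y ratio was -2.19 and -2.30. Each of its ratios uses a level behind the selection, so its ranks among the 333 are a description.

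Its partner miR-532-3p, the lesser arm of the same hairpin, had 1103, 80 and 122 reads in the 3 libraries in order of age, or 119, 22.1 and 12.3 CPM. It was 5.40-fold lower at P30d than at E90, -2.43 (-2.78 to -2.11), and its ratio from P30d to P7y was -0.84 (-1.26 to -0.42), without a call. The 2 arms therefore differed in how they moved across the libraries.

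The miR-362-5p arm, whose seed overlaps that of miR-500-5p shifted by 1 base, had 20557, 683 and 758 reads at E90, P30d and P7y. These are 2224, 189 and 76.4 CPM, and the arm ranked 50th, 142nd and 145th. Each later library was lower. It was 11.8-fold lower from E90 to P30d, -3.56 (-3.67 to -3.45), and 2.47-fold lower from P30d to P7y, -1.30 (-1.45 to -1.15). The latter lay 0.02 above the median of all arms, and was -0.28 with TMM factors and -0.20 with size factors, so its call rested on the scaling. The lesser arm miR-362-3p had 255, 17 and 11 reads, or 27.6, 4.69 and 1.11 CPM. It was 24.9-fold lower at P7y than at E90, -4.64 (-5.66 to -3.77), or -3.44 with TMM and -3.54 with size factors.

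In miR-500 the 3p arm was the more abundant. It had 18160, 586 and 1214 reads, or 1965, 162 and 122 CPM, and ranked 54th, 151st and 120th. The arm was 12.1-fold lower from E90 to P30d, -3.60 (-3.72 to -3.48), and its ratio from P30d to P7y was -0.40 (-0.55 to -0.26), 0.92 above the median of all arms. The 5p arm had 3070, 79 and 111 reads, or 332, 21.8 and 11.2 CPM, and was 15.2-fold lower from E90 to P30d, -3.93 (-4.27 to -3.61). At P7y the 3p and 5p arms were 16.1-fold and 29.7-fold below their E90 levels on the CPM scale, log2 ratios of -4.00 and -4.89. With TMM factors the log2 ratios were -2.80 and -3.69, and with size factors -2.91 and -3.79.

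The miR-660-5p arm, from the last hairpin of the cluster, had 6915, 244 and 337 reads, or 748, 67.3 and 34.0 CPM. It was 11.1-fold lower from E90 to P30d, -3.47 (-3.66 to -3.29), and 22.0-fold lower from E90 to P7y, -4.46 (-4.62 to -4.30), or -3.26 with TMM and -3.36 with size factors. From P30d to P7y its ratio was -0.99 (-1.23 to -0.74), just inside the size rule. Its 3p arm had 6 reads at E90 and 1 at P30d, and none was found at P7y. The P30d read and 3 of the 6 E90 reads lay in rows whose representative read was not found whole in the miR-660 hairpin.

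The miR-188-5p arm was scarce although its hairpin begins 354 bases after the start of the miR-532 hairpin. It had 274, 62 and 14 reads, or 29.6 (26.2 to 33.4), 17.1 (13.1 to 21.9) and 1.41 (0.77 to 2.37) CPM. It was the 1 arm of the 8 without a call from E90 to P30d, and it was called lower from P30d to P7y. It was 12.1-fold lower in that pair, -3.60 (-4.55 to -2.75), which was 2.28 below the median of all arms and came to -2.57 with TMM and -2.49 with size factors, while from E90 to P30d the ratio was -0.79 (-1.21 to -0.39). Only 43.5% of its P30d reads had no mismatch, against 78.8% at E90 and 92.9% at P7y. With reads without a mismatch alone the E90 to P30d ratio was -1.73. The arm was then called lower, as were all 8 member arms, beside 121 of all 302 arms that passed in that setting. The 3p arm had 21, 7 and 2 reads.

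Rows named miR-501-3p held 27 reads at E90 and 2 at P7y. None was found at P30d, where the 3 reads that a count of 0 allows are 0.828 CPM. The first 21 bases of its E90 representative read were also the main read of miR-500-3p, with 3 further bases that were not in the hairpin, and none of its reads was without a mismatch. Those E90 reads cannot be told apart from variants of miR-500-3p. The P7y representative read, atgcacccgggcaaggattctga, is listed with 1 mismatch. It matched the first miR-500 hairpin over its first 7 bases, then had a C where the hairpin has a T, and matched again after it.

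**Figure D3:**
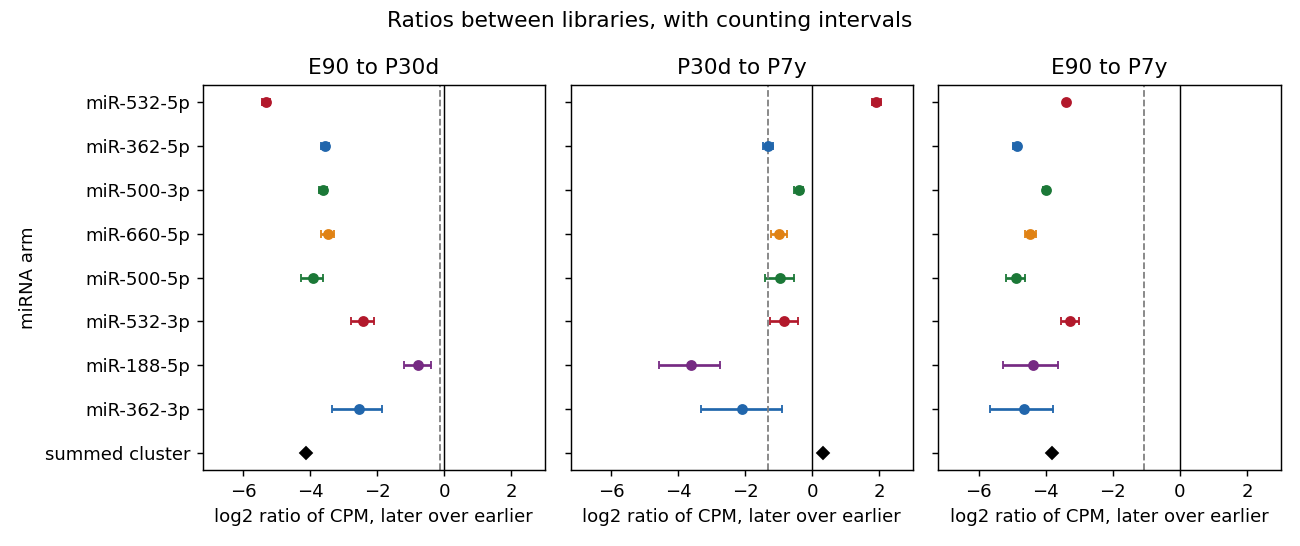
Log2 ratio of CPM, later over earlier library, of the 8 member arms and of the summed cluster (diamond) for the 3 pairs of libraries, with 95% counting intervals; the solid line is 0 and the dashed line the median of all 333 arms. In the pairs with E90 all points lie left of the dashed line; from P30d to P7y, miR-532-5p is the arm right of 0.

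The order of the arms changed between libraries. At E90, miR-532-5p was followed by miR-362-5p, miR-500-3p, miR-660-5p, miR-500-5p and miR-532-3p with intervals that did not overlap. Only the lowest 2 of the 8 arms, miR-188-5p and miR-362-3p, overlapped. At P30d, miR-362-5p led, and its interval of 175 to 203 CPM overlapped at its edge that of miR-500-3p, 149 to 175, which in turn overlapped that of miR-532-5p. At P7y, miR-532-5p led again, ahead of miR-500-3p, miR-362-5p and miR-660-5p without overlap. Levels of different miRNAs in small RNA libraries also depend on how well each ligates to the adaptors, which was not tested.

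Shares within the cluster do not depend on the scaling between libraries. Both arms of miR-532 made up 51.5% of the cluster reads at E90 (51.2 to 51.8). The share was 25.9% (24.1 to 27.7) in the P30d library and 68.6% (67.5 to 69.6) in the P7y library. The share of miR-362 was 20.5%, 30.9% and 9.86%, and that of miR-500 was 20.9%, 29.4% and 17.0%. The share of miR-660 was 6.81%, 10.8% and 4.32%, and that of miR-188 was 0.290%, 3.05% and 0.205%. With reads without a mismatch the P30d share of miR-188 was 1.80%. With the representative read only, its shares were 0.199%, 2.60% and 0.371%, so E90 and P7y changed order. The shares of miR-362, miR-500, miR-660 and miR-188 were all largest in the P30d library, where that of miR-532 was smallest. Shares add up to the whole cluster, so a smaller miR-532 share makes the others larger. The low P30d level of miR-532-5p was part of the selection, so these differences are a description. Against the rest of the cluster, the log2 odds of miR-532 differed by -1.61 (-1.74 to -1.47) from E90 to P30d and by 2.64 (2.49 to 2.80) from P30d to P7y. Those of miR-188 differed by 3.43 (3.03 to 3.82) and -3.93 (-4.82 to -3.13). Without miR-532, the summed cluster had a log2 ratio of -0.91 (-1.0 to -0.82) from P30d to P7y on the CPM scale. The slightly higher P7y sum on that scale thus rested on that hairpin.

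**Figure D4:**
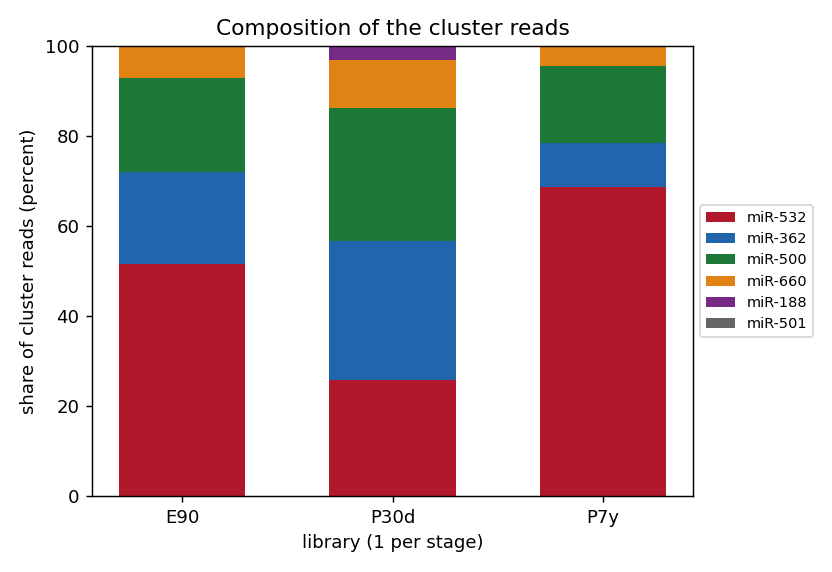
Share of each member, both arms summed, in the cluster reads of the E90, P30d and P7y libraries (percent). Bars add up to the whole cluster, and miR-500 covers both copies. The miR-532 segment is 51.5%, 25.9% and 68.6%, and the miR-501 segment is too thin to see.

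The balance of the arms of miR-532 also differed at P30d. The low P30d level of miR-532-5p was among the values the cluster was selected on, so this balance is a description. Its 3p arm made up 2.11% of the hairpin's reads at E90 (1.99 to 2.23) and 13.7% at P30d (11.0 to 16.7). In the P7y library it made up 2.28% (1.90 to 2.72). The E90 and P7y shares overlapped, and the P30d share stood apart from both. The log2 odds of the 3p over the 5p arm were 2.88 higher at P30d than at E90 (2.51 to 3.23), and the P7y value differed from P30d by -2.76 (-3.20 to -2.31). The 3p share of miR-362 was 1.23% (1.08 to 1.38), 2.43% (1.42 to 3.86) and 1.43% (0.72 to 2.54). The 5p share of miR-500, its lesser arm, was 14.5% (14.0 to 14.9), 11.9% (9.52 to 14.6) and 8.38% (6.94 to 10.001).

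In all 195 hairpins reached 50 reads in every library, of which 4 were members, and the same size rule was applied to the odds of the lesser arm. From E90 to P30d the lesser arm was higher in miR-532 and miR-362, 2 of 4, and lower in none, against 34.9% higher and 21.0% lower among the 195. The miR-362 value of 1.0 (0.19 to 1.72) lay at the threshold. In the P30d to P7y pair it was lower in miR-532 alone and higher in none, against 33.8% lower and 25.6% higher. From E90 to P7y no member was called, against 24.6% lower and 20.0% higher.

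**Figure D5:**
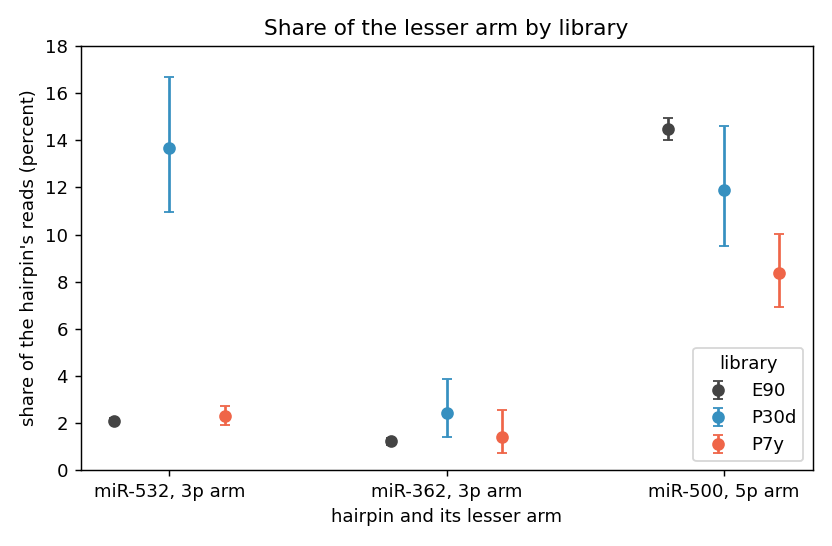
Share of the lesser arm in the reads of its hairpin (percent) for miR-532, miR-362 and miR-500 in the E90, P30d and P7y libraries, with 95% Clopper-Pearson intervals. The 3p share of miR-532 is 13.7% at P30d and near 2% in the other libraries.

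The ends of the reads varied for some arms. The representative miR-500-3p read at E90 was atgcacctgggcaaggattct, and at P30d and P7y it was atgcacctgggcaaggattctga, longer by 2 bases, both of which follow the shorter form in the first hairpin. The representative miR-188-5p read at P30d, catcccttgcatggtggaggga, ended in an A where the hairpin has a T. For miR-362-5p, separate rows whose representative read ended in 1 or 2 A that the hairpin does not hold made up 6.96% of the arm's reads at E90 (6.62 to 7.32) and 4.83% at P30d (3.35 to 6.72). In the P7y library they made up 11.9% (9.66 to 14.4). For miR-532-5p such rows held 0.712%, 1.19% and 0.727%. For miR-532-3p they held 3.45% (2.45 to 4.70) and 1.25% (0.032 to 6.77), and none at P7y, where 122 reads allowed up to 2.98%. The P7y share of miR-362-5p stood above the other 2, whose intervals overlapped. Reads with such ends inside the main rows were not counted, because the tables list 1 representative read per row.

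Among 176 other arms with a mean of 100 CPM or more, those whose centred log2 CPM over the 3 libraries lay closest to the summed cluster were miR-144-5p, miR-183-5p, miR-182-5p, miR-20a-5p and miR-152-3p. The Euclidean distances were 0.25, 0.36, 0.80, 0.81 and 0.94. The closest, miR-144-5p, had 1168, 54.7 and 66.9 CPM at E90, P30d and P7y, and miR-183-5p had 421, 32.6 and 30.3 CPM. With 3 libraries, a likeness of this kind describes these tables only.

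Since miR-144-5p belongs to a miRNA pair of red blood cell precursors, the erythroid markers are given beside the cluster. The summed level of the arms of miR-144, miR-451 and miR-486 was 0.724%, 0.303% and 0.182% of miRNA reads at E90, P30d and P7y. Of the 4 such arms that passed the filter, 3 were lower from E90 to P30d, where 35.7% of all arms were, and 4 from E90 to P7y, where 50.8% were. Both counts include miR-144-5p, which was picked for its likeness to the cluster. None of these 3 markers was at 0 in a library, and miR-451-5p had 3941, 1339 and 1223 CPM. The partner arm miR-144-3p had 978, 1195 and 123 CPM, highest at P30d, unlike miR-144-5p and the cluster. Leukocyte markers made up 0.104%, 0.460% and 0.112%, with the sum highest at P30d. Of their leading arms, miR-142-5p was at 374, 2956 and 609 CPM and miR-146a-5p at 56.8, 1151 and 169. The miR-142-3p arm, at 195, 190 and 105 CPM, was not highest at P30d. In whole tissue, fewer cells of a type and less RNA per cell cannot be told apart, and the part of blood cells in the cluster's level was not tested.

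Other X chromosome clusters were compared by counts. In the cluster of miR-424, miR-503, miR-542 and the miR-450 family, 5 of 8 arms that passed were lower from E90 to P30d, 7 from P30d to P7y and 8 from E90 to P7y, with medians of -1.78, -3.57 and -4.93. In each of the first 2 pairs 1 arm was higher. Of all 333 arms, 35.7%, 55.3% and 50.8% were lower in these pairs. In the cluster of miR-106a, miR-18b, miR-20b and miR-363, 2 of 3 arms were lower from E90 to P30d and 3 of 3 in each of the other pairs. The summed share of the first was 2.44%, 0.390% and 0.101%, and that of the second 0.177%, 0.0469% and 0.0145%. Both had their lowest share at P7y, whereas the lowest share of the miR-532 cluster was at P30d. This difference has no test and rested on miR-532, since without it the summed log2 ratio from P30d to P7y was -0.91. Within the miR-424 cluster, miR-542-3p was also lowest at P30d, with 10738, 115 and 375 CPM at E90, P30d and P7y.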

How the data were processed

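Small RNA of 14 to 40 nt was sequenced from pig liver, with 1 library per stage. Reads were mapped by the authors to known mammalian hairpins, which were placed on the pig genome and sorted into groups, per the file headers. The deposited reads of an arm are expected counts, because reads that fit several hairpins were split between these. The deposited copies of the representative read are counts. The submitters' processing notes name the build Sscrofa10.2, and the aligner is not given in the sources used here.

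Expected counts were summed by name and arm, rounded, and divided by the reads of named rows (CPM). Log2 ratios carry exact conditional binomial 95% intervals, and shares Clopper-Pearson intervals. For the size of a ratio, 3 reads stood in for 0. Odds of arms used exact intervals up to 20000 reads of the lesser arm and a normal interval above, which no member reached. There is no p-value, since each stage has 1 library. Members and lists were chosen with earlier results of these data known. Named miRNAs were all members, the 5 closest arms by pattern, arms that share a seed, and the leading arms of the lists, which were hepatocyte, erythroid, leukocyte, endothelial and mesenchymal markers and 2 other X clusters. Endothelial markers made up 1.82%, 1.47% and 1.42% of miRNA reads at E90, P30d and P7y, and mesenchymal markers 5.83%, 6.46% and 11.3%. Within both lists the leading arms went different ways. Of the endothelial arms, miR-126-3p was at 11832, 7426 and 10952 CPM, miR-126-5p at 1465, 4458 and 2616, and miR-221-3p at 3567, 1489 and 394. Of the mesenchymal arms, miR-143-3p was at 51124, 17730 and 102623 CPM, miR-199a-5p at 3349, 40212 and 2539, and miR-199a-3p at 2011, 4078 and 2039.

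The alternatives tried were size factors by median of ratios from DESeq2 1.42.0, TMM factors from edgeR 4.0.16, leaving the 5 leading miRNAs of each library out of the total, a filter at 100 CPM or none, reads without a mismatch, the representative read only, known pig hairpins only, names with the same read merged, and the close name miR-502b added. Leaving out miR-532 and adding the predicted hairpin were chosen after seeing the data. Calculations used Python 3.11.15, SciPy 1.17.1, Biopython 1.88 and R 4.3.3, and the ratio script was tested on simulated data.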

Additional observations from a re-analysis of the deposited data

Results flagged for a closer look

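Reads outside the comparisons lay over the further copy of miR-500. A hairpin that the authors' tables list as predicted, at chrX:48639689-48639951 (Sscrofa10.2) in the E90 and P30d libraries, held 138 reads in the E90 library, 13 in P30d and 7 in P7y, above the 3 reads that a count of 0 allows. These are 14.9, 3.59 and 0.706 CPM. Its representative reads begin with G, as the 3p arm of the further copy does, and at E90 the read was gtgcacctgggcaaggattctgat, with 1 mismatch. The miR-500-3p arm had 18160, 586 and 1214 reads, of which 2 at E90 lay in a row placed at the further copy. The reads of the predicted hairpin were in no member sum.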

How the results depend on the processing

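No paired analysis was possible because each stage has 1 library. The summed cluster was lower from E90 to P30d and from E90 to P7y under every alternative run, with its call. From P30d to P7y its log2 ratio became 1.36 with TMM factors and 1.44 with size factors, past the size rule. On the CPM scale without miR-532 it was -0.91. The number of member arms lower from P30d to P7y was 1 instead of 3 with TMM factors, with size factors, with the 100 CPM filter and with the representative read only. With the 100 CPM filter 5 arms were tested, and all 5 were lower from E90 to P7y. Counts of member arms under the other alternatives stayed within 1.5 times the main count. Merging names with the same read merged 17 names, none of them a member. The miR-532 share at P30d was 31.6% with the representative read only and 30.3% with known pig hairpins only, which leave out miR-188 and miR-660. At P30d, depth limits miR-188-5p, miR-532-3p, miR-500-5p and miR-362-3p, each with under 100 reads.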
